A study of Mus musculus with 10 samples.

Results

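DNA mismatch repair removes bases that were mispaired or looped out when DNA was copied. In this pathway a MutS complex recognizes the mismatch, a MutL complex nicks or licenses the strand to be removed, the exonuclease Exo1 degrades that strand, and the sliding clamp Pcna, a DNA polymerase and a DNA ligase restore it. Most neurons no longer divide, and in nervous tissue some of these proteins are also studied for their part in the instability of repeated sequences. The genes described here were 8 named members of this pathway, namely Msh3 and Msh6 of the MutS family, Mlh3, Pms1 and Pms2 of the MutL family, Exo1, Pcna and the replicative ligase Lig1. They were chosen by name from the 53379 genes counted. All 8 were among the 19754 genes tested, although some passed the filter on low counts only through the libraries in which they were high.

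The data were 10 bulk RNA-seq libraries of sorted hippocampal cells, which the paper also calls nuclei. Mice were 5-week-old males. Active cells were marked with a pair of viruses. AAV9-c-Fos-tTA makes a doxycycline-sensitive transactivator under control of c-Fos, and AAV9-TRE-ChR2-EYFP answers to it, so that cells active while the drug was withheld became EYFP-positive and were sorted. The 2 aversive libraries came from mice given 4 foot shocks of 1.5 mA and 2 s each. The 2 appetitive libraries came from males that met a female for 1 h. The 3 neutral libraries came from mice placed in the conditioning cage with neither stimulus. The 3 mock libraries came from home cage mice, which the paper describes as an untagged control. The labels state that 8 mice were pooled for a condition. By the Methods of the paper the mock control had fewer mice than its 3 libraries, so these cannot all be separate animals. Whether each library was its own pool is not given, so the p-values measure only the spread between these libraries, which may be technical. The neutral libraries were prepared with another kit and read as 100 bp paired ends, where the others were read as 40 bp single ends, so that effects of kit and of neutral experience cannot be told apart.

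Total counts ran from 16968588 to 67650693 per library. Levels are given as normalised read counts (CPM, counts scaled to the TMM-normalised library size), and 3 counts, taken as the smallest level the depth can show, corresponded to between 0.0347 and 0.235 CPM. This floor covers counting error only. The sorted material was not a pure neuronal fraction. The 6 oligodendrocyte markers summed to between 7438 and 802100 CPM, and the 8 neuronal markers to between 69.2 and 84.1 CPM in the neutral and between 171 and 762 CPM in the other libraries. Snap25 made up most of the appetitive neuronal sums, at 577 and 154 CPM. Syt1 went the other way, at 0.547 and 0 CPM in appetitive and 10.3 to 33.0 CPM in neutral libraries. Rbfox3, Slc17a7 and Neurod6 were at most 1.17 CPM in the appetitive libraries. The 6 microglia markers summed to at most 196 CPM in the neutral libraries and to at least 536 CPM in the others. The 4 choroid plexus and ependyma markers summed to between 21030 and 129900 CPM in the neutral libraries and to at most 13470 CPM in the others, and the 6 astrocyte markers to at most 204 CPM in the neutral libraries and at least 2261 CPM in the others. In bulk samples, fewer cells of a type and less RNA per cell cannot be told apart.

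Sequence near the start sites is shown for the genes whose libraries separated by condition below. For Msh6, Mlh3 and Lig1 it is the 100 bases before a RefSeq start (GRCm38.p6), and for Pcna the 100 bases before the outermost annotated start of the gene, on the strand of each gene. The stretches are chr17:87974950-87975049 (plus strand), chr12:85270600-85270699 (minus), chr7:13278726-13278825 (plus, before the second of 3 Lig1 starts) and chr2:132253315-132253414 (minus). The first 3 lay in no annotated exon, and the Pcna stretch overlapped an exon of AV099323.
Msh6: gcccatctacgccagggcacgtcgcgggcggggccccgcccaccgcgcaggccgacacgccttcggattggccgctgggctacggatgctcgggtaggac
Mlh3: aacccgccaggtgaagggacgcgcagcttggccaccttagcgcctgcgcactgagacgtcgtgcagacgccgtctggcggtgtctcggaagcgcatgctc
Lig1: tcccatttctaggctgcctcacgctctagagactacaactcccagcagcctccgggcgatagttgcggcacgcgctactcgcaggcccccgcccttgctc
Pcna: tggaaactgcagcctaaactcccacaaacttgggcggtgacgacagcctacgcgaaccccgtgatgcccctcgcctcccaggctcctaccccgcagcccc
All 4 stretches were rich in G and C, with 75, 67, 64 and 65 such bases of 100. Promoters of genes used in S phase often carry an E2F site, and its letters TTTGGCGC, TTTGCCGC, TTTCGCGC and TTTCCCGC were searched on both strands from 250 bases before to 50 bases after each RefSeq start. A window was found for 7 of the 8 genes. A match lay in a window of 3 of these 7, against 2.6% of 27025 genes with a window. The matches of Msh6 and Lig1 are printed with 8 bases on either side and the motif in capitals, at chr17:87975057-87975080 in the first exon of Msh6 and at chr7:13278844-13278867 in an exon of Lig1.
Msh6: ctcccgacTTTCCCGCcagcggcg
Lig1: caaagtgcGCGCGAAAtctgtgtg
The third gene with a match was Msh3. No match was found in the windows of Mlh3, Pms1, Pms2 and Pcna. A match states only that these letters are present.

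In the home cage the 8 genes were expressed at low to moderate levels, and Exo1 was close to the floor. Per kilobase of exon, mean levels in the 3 mock libraries were 6.31 ± 3.70 CPM for Pcna (SD, n = 3), 4.90 ± 1.68 for Msh6, 2.05 ± 1.17 for Mlh3, 1.43 ± 0.524 for Msh3, 1.23 ± 0.622 for Lig1, 1.12 ± 0.316 for Pms2, 0.764 ± 0.203 for Pms1 and 0.0358 ± 0.0257 for Exo1. Neighbours in this order had overlapping mean ± SD ranges, except Msh6 with Mlh3 and Pms1 with Exo1. In neutral vCA1 cells Pcna was again highest per kilobase, at 5.46 ± 0.236 CPM (n = 3). Between neutral and mock libraries, none of the 8 genes passed the edgeR quasi-likelihood test, adjusted or not, at 0.05, and DESeq2 called none of them and 7.43% of all tested genes. Of all tested genes, 13.5% had an unadjusted p under 0.05 in this comparison and 0.0861% passed an adjusted p of 0.05. A p above the threshold does not show that the levels were equal.

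**Figure D1:**
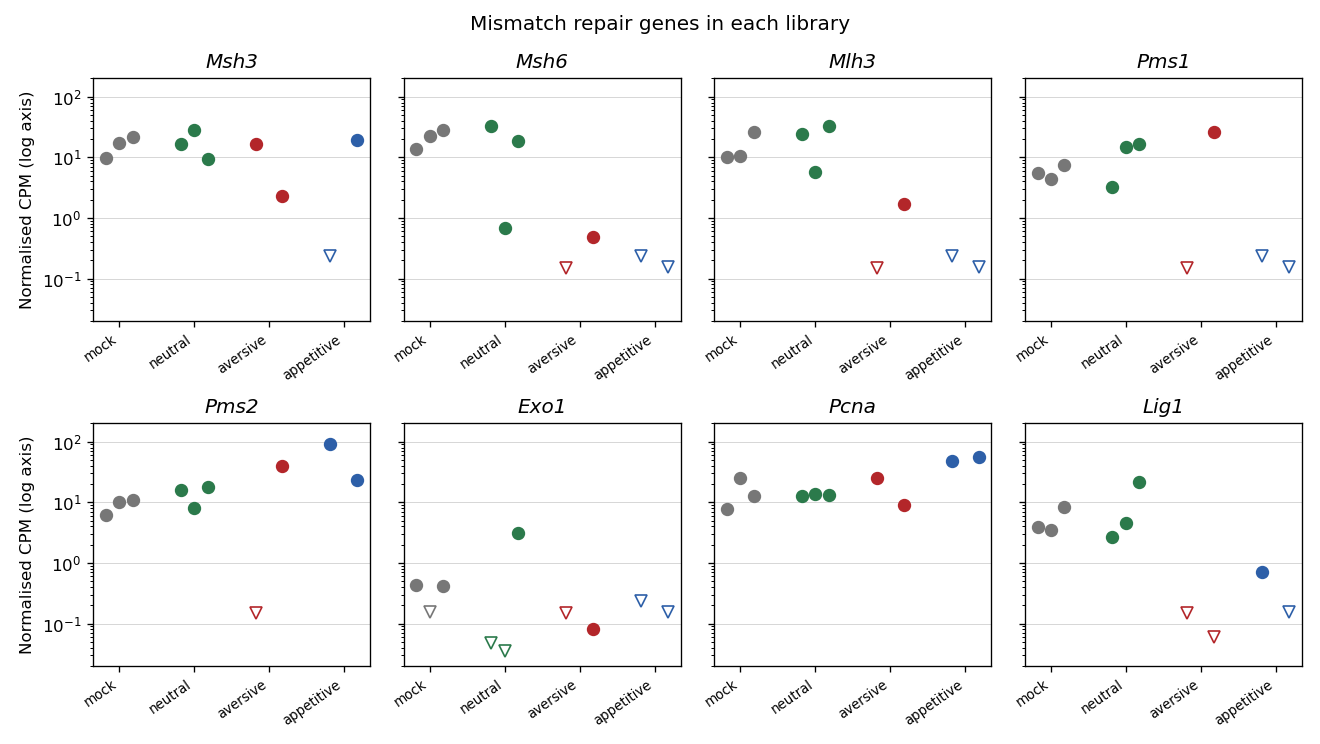
Normalised CPM of each gene in every library, on a log axis, with libraries grouped as mock, neutral, aversive and appetitive. Filled circles are measured levels, and open triangles are libraries with 3 counts or fewer, drawn at the level of 3 counts; Msh6, Mlh3 and Lig1 were lower in all 4 aversive and appetitive libraries than in any other library, and Pcna was highest in the 2 appetitive libraries.

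The lowest levels of Msh6, Mlh3 and Lig1 were found in the libraries of both salient experiences, aversive and appetitive. In each of these 3 genes, all 4 aversive and appetitive libraries lay below all 6 neutral and mock libraries, an arrangement found in 6.49% of all tested genes. Pms1 was also missing in the appetitive libraries but not in both aversive ones, Pms2 and Msh3 varied strongly between libraries of 1 group, and Pcna was not lower in either group. Only 1 of the 8 genes, Mlh3, passed an adjusted p of 0.05 in edgeR, and only between appetitive and neutral cells, where 6.17% of all tested genes passed. This call was lost with the replicate block, with only the 2 groups compared and without any one of 8 libraries.

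Msh6 encodes the MutS subunit used for single mispairs and short loops. It stood at 13.7, 22.1 and 28.2 CPM in the mock libraries and at 32.3, 0.681 and 18.6 CPM in the neutral libraries. In the aversive libraries it stood at 0.100 and 0.481 CPM (2 and 24 counts), and in the appetitive libraries at 0.156 and 0.0524 CPM (2 and 1 counts). The second neutral library was thus close to the aversive range, with 59 counts, and the other 5 neutral and mock libraries lay far above it. Against neutral cells, Msh6 was lower in aversive cells by a log2 fold change of -5.84 (SE 1.95, edgeR adjusted p = 0.177). In appetitive cells the pooled level was 183-fold below neutral (95% counting interval 62.5 to 886, adjusted p = 0.0618 in edgeR) and 226-fold below mock (77.5 to 1098, adjusted p = 0.0849), neither of which passed. The ratio to neutral was 103-fold without neutral replicate 1, 328-fold without appetitive replicate 1 and 110-fold without appetitive replicate 2, and that to mock was 407-fold and 136-fold without these appetitive libraries. The comparison with neutral cells passed without aversive replicate 1, aversive replicate 3 or neutral replicate 2 (adjusted p = 0.0377, 0.0391 and 0.0487), and that with mock cells without aversive replicate 1 or 3 (0.0409 and 0.0459). The neighbouring gene Fbxo11 overlaps an Msh6 exon on the other strand, and counting ignored strand. Fbxo11 was at 7.59 and 125 CPM in the appetitive libraries and between 12.9 and 22.8 CPM in the other 8.

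Msh3, the MutS subunit for larger loops, did not follow Msh6. It was at 9.68, 17.3 and 21.3 CPM in mock, 16.3, 28.6 and 9.47 CPM in neutral, 16.9 and 2.33 CPM in aversive and 0.0782 and 19.5 CPM in appetitive libraries. The first appetitive library held a single count, while the second was within the mock range. The change was -0.92 in aversive (SE 1.67) and -0.89 in appetitive cells (SE 1.67) against neutral on the log2 scale, with adjusted p = 0.822 and 0.759 in edgeR. Without appetitive replicate 2, which leaves the library with 1 count, the appetitive change was -7.84 (adjusted p = 0.0499).

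Mlh3 encodes a MutL subunit with an endonuclease domain, used in meiotic crossing over and in a branch of mismatch repair. It was at 10.1, 10.6 and 25.7 CPM in mock and at 24.0, 5.65 and 32.8 CPM in neutral libraries. A count of 1 was found in the first aversive library and 85 (1.70 CPM) in the second, and both appetitive libraries had 0 counts. No salient library reached the lowest neutral or mock value. Mlh3 was at least 88.7-fold lower in appetitive than in neutral cells (edgeR adjusted p = 0.0386, lower in 2 of 2 libraries), where 6.17% of all tested genes passed the same threshold. Without any one of the mock, appetitive or neutral libraries this adjusted p lay between 0.0503 and 0.095, so the call rested on each of these 8 libraries, and it also reached 0.109 with the replicate number as a block. Against mock cells it was at least 65.9-fold lower (adjusted p = 0.0639, and 0.0186 or 0.0212 without aversive replicate 1 or 3). Aversive against neutral cells gave -4.55 on the log2 scale (SE 1.87, adjusted p = 0.236).

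Pms1, a MutL subunit with a less defined role in repair, was missing from the appetitive libraries and split the aversive pair. Both appetitive libraries held 0 counts. In the aversive group the first library held 2 counts (0.100 CPM) and the second 1311 counts (26.3 CPM), the highest level of all 10 libraries. Mock libraries ranged from 4.43 to 7.44 CPM and neutral libraries from 3.20 to 16.3 CPM. Pms1 was at least 48.6-fold lower in appetitive than in neutral cells (edgeR adjusted p = 0.0625) and at least 56.2-fold lower than in aversive cells (adjusted p = 0.114), a contrast that rested on aversive replicate 3, without which both groups were under the floor, and that was at least 112-fold without aversive replicate 1. Without aversive replicate 1 the adjusted p of appetitive against aversive was 0.0264, and without aversive replicate 1 or 3 that of appetitive against neutral was 0.0144 or 0.0170 and that of appetitive against mock 0.0227 or 0.0280. In appetitive against aversive cells, 1.8% of tested genes passed an adjusted p of 0.05, and 15.8% were lower with an unadjusted p under 0.05, among them 2 of the 8 members, Mlh3 and Pms1.

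Pms2 encodes the MutL endonuclease subunit that nicks the strand to be removed in the main branch of the pathway. It was at 6.21, 10.1 and 11.04 CPM in mock and at 15.9, 8.12 and 17.5 CPM in neutral libraries. The aversive libraries disagreed, with 1 count in one and 1955 counts (39.2 CPM) in the other, and the appetitive libraries had 91.9 and 22.9 CPM. Both appetitive libraries were above all 6 neutral and mock libraries, as were 6.08% of all tested genes. The appetitive change against neutral was 2.05 (log2, SE 1.60, edgeR adjusted p = 0.394). Without aversive replicate 3, Pms2 was higher in appetitive than in aversive cells by 10.08 on the log2 scale (adjusted p = 0.0358), from a single aversive library with 1 count. Rsph10b shares exonic sequence with Pms2 on the same strand and was at 22.7 CPM in the aversive library with the high Pms2 level, and at 13.7 and 0 CPM in the appetitive libraries.

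Exo1, the exonuclease of the pathway, was barely detected. It had 11, 1 and 30 counts in mock, 0, 0 and 238 in neutral, 1 and 4 in aversive and 0 and 0 in appetitive libraries. The third neutral library, at 3.06 CPM, was the only one above 1 CPM. No comparison of Exo1 passed in edgeR, with adjusted p = 0.516 for aversive and 0.218 for appetitive against neutral. The aversive estimate of -3.89 (log2) and the appetitive bound of at least 4.345-fold lower, both against neutral, rested on the third neutral library alone. No fold is given between groups at or under the floor.

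Pcna, the sliding clamp shared by replication and repair, was the one member above 3 counts in every library. It was at 7.77, 25 and 12.6 CPM in mock, 12.5, 13.6 and 13.1 CPM in neutral, 25.5 and 9.16 CPM in aversive and 48.4 and 55.9 CPM in appetitive libraries. The 2 appetitive libraries were above all 8 others, as in 4.08% of all tested genes. The appetitive level exceeded neutral by 1.99 (log2, SE 0.999, edgeR adjusted p = 0.203), mock by 1.79 (adjusted p = 0.275) and aversive by 1.59 (adjusted p = 0.489), and none of these passed in edgeR. DESeq2 called Pcna higher in appetitive cells against neutral (2.29, DESeq2 adjusted p = 0.0160) and against mock (2.05, adjusted p = 0.0385). In these comparisons DESeq2 called 30.3% and 24.7% of all tested genes. Aversive and neutral cells differed by 0.40 (SE 0.999, adjusted p = 0.881), a difference that turned to -0.04 when libraries were scaled by total counts alone. Of the Pcna pseudogenes annotated, Pcna-ps1 had 0 counts and Pcna-ps2 was between 0.142 and 2.87 CPM, so reads that match both gene and copy may have been split.

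Lig1, which seals the nick left after resynthesis, was low in the same libraries as Msh6. It was at 3.86, 3.54 and 8.29 CPM in mock and at 2.65, 4.47 and 21.6 CPM in neutral libraries. The aversive libraries held 3 and 2 counts (0.150 and 0.0401 CPM), and the appetitive libraries held 9 and 0 counts (0.704 and 0 CPM). The pooled aversive level was 134-fold below neutral (95% counting interval 57.3 to 412, edgeR adjusted p = 0.203) and 73.3-fold below mock (31.4 to 226, adjusted p = 0.488). The neutral level was carried by the third library, without which the aversive ratio was 49.9-fold. It was 239-fold without aversive replicate 1 and 63.7-fold without aversive replicate 3, and the ratio to mock was then 131-fold and 34.9-fold. Appetitive against neutral cells gave -4.78 on the log2 scale (SE 2.25, adjusted p = 0.182). Zswim9, which overlaps Lig1 on the other strand, was at 47.2 CPM in the aversive library where Lig1 had 3 counts and at 0.0401 CPM in the other. Its level was 19.2, 0.370 and 32.1 CPM in neutral, 0 and 0.838 CPM in appetitive and 8.58 to 35.2 CPM in mock libraries. The part of shared reads in the Lig1 levels was not tested.

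**Figure D2:**
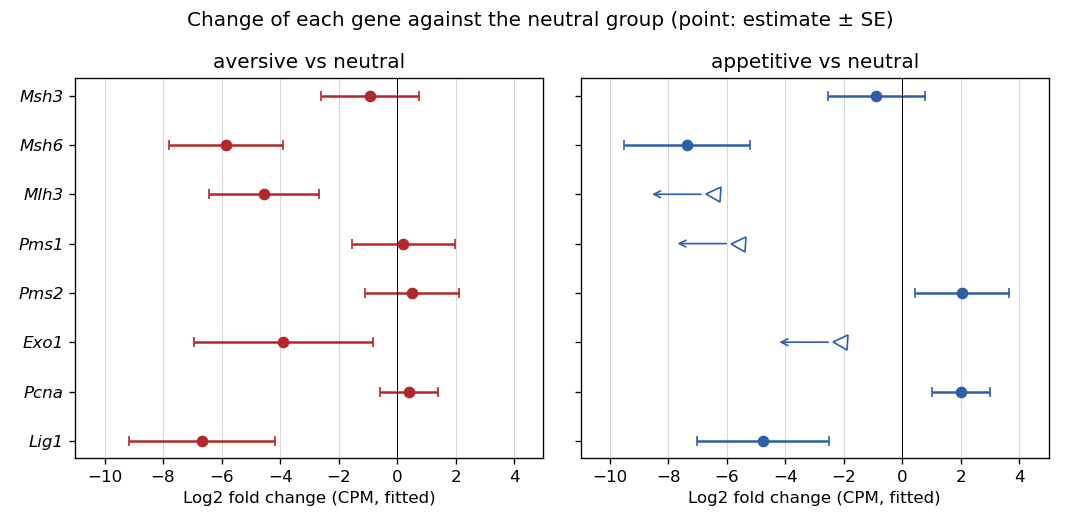
Log2 fold change of each gene in aversive (left) and appetitive (right) against neutral cells, as the edgeR estimate with its standard error. Open triangles with arrows mark genes with 0 counts in both appetitive libraries and show the bound against the level of 3 counts. The Exo1 points rested on neutral replicate 3 alone. Msh6, Mlh3 and Lig1 lay left of 0 in both panels, and Pms2 and Pcna lay right of 0.

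Taking the 8 genes by comparison, 5 were lower and 3 higher in aversive than in neutral cells, with a median log2 fold change of -2.40 against -0.15 over all tested genes. This median was the mean of Exo1 (-3.89) and Msh3 (-0.92), and Exo1 turned to 4.51 without neutral replicate 3. With all libraries, Msh6, Mlh3 and Lig1 had an unadjusted p under 0.05 in this comparison, as did 10.8% of tested genes in the same direction. No member passed an adjusted p of 0.05 in edgeR, which 0.0405% of genes did. DESeq2 called 3 members and 15.5% of all tested genes. The paper, from this same series, reports mismatch repair as its top downregulated pathway in aversive cells. The members were chosen with earlier results of these data known, so these values are not independent support for that report. In appetitive against neutral cells 6 were lower and 2 higher. The median of fitted values was -6.07, against -0.91 over all tested genes as fitted. With the genes at 0 counts set to their bound the median of the 8 was -3.45, and no such median was computed over all tested genes. That value was the mean of Lig1 and the Exo1 bound, which rested on neutral replicate 3 alone. Here 3 members (Msh6, Mlh3 and Pms1) were lower with an unadjusted p under 0.05, where 21.8% of tested genes were. DESeq2 called 5 members, Msh6, Mlh3, Pms1 and Lig1 lower and Pcna higher, and 30.3% of all tested genes in either direction. The appetitive against aversive median was -0.75 as fitted and 0.02 with bounds, so that its direction depended on how genes at 0 were set, and DESeq2 called 2 members and 20.4% of all tested genes there.

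The comparisons with mock cells share the salient libraries with the comparisons above. In aversive against mock cells Msh6, Mlh3 and Lig1 were lower with an unadjusted p under 0.05, where 8.95% of tested genes were, and with adjusted p from 0.474 to 0.495. No gene at all passed an adjusted p of 0.05 in edgeR (0.0%), and DESeq2 called 2 members and 7.41% of all tested genes. In appetitive against mock cells Msh6, Mlh3 and Pms1 were lower with an unadjusted p under 0.05, where 21.0% of tested genes were. None of the 8 passed an adjusted p of 0.05 in edgeR, which 1.98% of genes did. DESeq2 called 4 members, Msh6, Mlh3 and Pms1 lower and Pcna higher, and 24.7% of all tested genes in either direction.

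Low counts were more frequent in 3 of the 4 salient libraries than in the neutral and mock libraries, among the members and among all tested genes. The first aversive library had 3 counts or fewer for 6 of the 8 members and for 39.6% of all tested genes, and the second for 1 member and 22.6% of genes. Each appetitive library had 5 of the 8 members at 3 counts or fewer, beside 56.7% and 48.9% of all tested genes. All 8 members are protein-coding. Among protein-coding tested genes the shares were lower, at 30.3% and 17.5% in the aversive and 49.0% and 42.8% in the appetitive libraries. In the neutral libraries at most 1 member and between 17.5% and 23.3% of genes were that low, and in the mock libraries at most 1 member and between 2.09% and 17.2%. The summed level of the 8 members did not separate the groups, with 42.8 and 79.2 CPM in aversive, 141 and 98.3 CPM in appetitive, 75.8 to 133 CPM in neutral libraries and 57.1 to 115 CPM in mock ones. The part of these low counts in the results for Msh6, Mlh3, Pms1 and Lig1 was not tested.

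**Figure D3:**
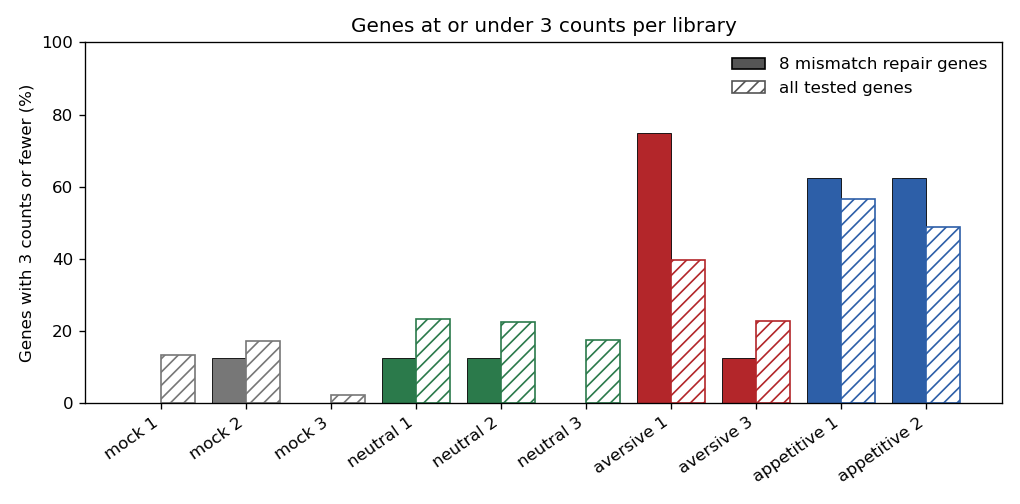
Percent of genes with 3 counts or fewer in each library, for the 8 mismatch repair genes (solid bars) and for all 19754 tested genes (hatched bars), with libraries coloured by group. The solid bar of the first aversive library is well above its hatched bar. In both appetitive libraries the solid bar is above the hatched bar by less, with 5 of 8 members and 56.7% and 48.9% of tested genes.

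Markers of dividing and of precursor cells were read beside these genes. Markers of oligodendrocyte precursors, the main dividing cells of adult brain parenchyma, separated the libraries in the same way as Msh6, Mlh3 and Lig1. That arrangement, all 4 salient libraries below all 6 neutral and mock libraries, was found in 6.49% of all tested genes. Both markers were above 3 counts in all 6 neutral and mock libraries, with a summed level of 18.4 to 55.9 CPM in mock and 19.6 to 118 CPM in neutral libraries. The sum was 0.250 and 3.57 CPM in aversive and 0.391 and 0.629 CPM in appetitive libraries, where Pdgfra had at most 3 counts. The 20 genes for S phase and division were summed at 113 to 195 CPM in mock, 86.6 to 176 CPM in neutral, 143 and 65.7 CPM in aversive and 175 and 157 CPM in appetitive libraries, so that this sum did not separate the groups. However, only 4 and 5 of the 20 were above 3 counts in the appetitive libraries, against 17 to 20 in mock, 9 to 15 in neutral and 13 and 14 in aversive libraries. The 4 neural progenitor and neuroblast markers summed to 6.21 and 37.0 CPM in aversive and 42.4 and 29.0 CPM in appetitive libraries. Their sums were 3.02 to 19.5 CPM in mock and 0.104 to 2.04 CPM in neutral libraries. Sox11 made up most of the salient sums, at 6.2 and 34 CPM in aversive and 42.2 and 29.0 CPM in appetitive libraries. Only 1 of the 4 was above 3 counts in each appetitive library. That number was 1 and 2 in aversive, 1 to 4 in mock and 1 to 2 in neutral libraries. The part of precursor cells in the change of the mismatch repair genes was not tested.

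A list of 14 partners held the clamp loader (Rfc1 to Rfc5), the single-strand binding protein RPA and DNA polymerase delta of the resynthesis step. It also held Hmgb1 and the histone methyltransferase Setd2, which lie outside that step. Of the 14, 2 were lower and none higher at an edgeR adjusted p under 0.05 in appetitive against neutral cells. In that comparison 6.17% of all tested genes passed. They were Setd2, at 0.156 and 0.105 CPM in appetitive and 33.5, 10.3 and 23.3 CPM in neutral libraries (adjusted p = 0.0401), and Pold1, the catalytic subunit of DNA polymerase delta, at 0 and 0.105 CPM against 20.7, 50.7 and 15.7 CPM (adjusted p = 0.0486). Both calls were lost with the replicate block (adjusted p = 0.115 and 0.116), with only the 2 groups compared (0.111 for both) and without any one mock, appetitive or neutral library (0.0519 to 0.101), and that of Pold1 also under both other scalings (0.0519 and 0.0569). In appetitive against aversive cells Rfc4 was lower (adjusted p = 0.0493), with 2 and 0 counts in appetitive libraries and 881 and 2844 counts in aversive ones. The Rfc4 call was lost with the replicate block (0.196), with only the 2 groups compared (0.794), in the 7 libraries of the shared kit (0.147), with DESeq2's size factors (0.0563) and without any one mock or neutral library (0.0719 to 0.114). Rfc4 overlaps Eif4a2 on the other strand. The median log2 fold change of the 14 was -0.46 in aversive and -1.19 in appetitive cells against neutral, beside -0.15 and -0.91 over all tested genes. The single-strand binding subunit Rpa2 had 1 and 15 counts in aversive libraries and 695 to 1094 in neutral ones, with an adjusted p of 0.200.

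Of 20 base excision repair genes, which mend single damaged bases, 1 was higher and 1 lower at an adjusted p under 0.05 in appetitive against neutral cells, beside 6.17% of all tested genes. Polb, the gap-filling polymerase of that pathway, rose by 3.01 on the log2 scale (SE 0.739, adjusted p = 0.0401). It was at 205 and 179 CPM in appetitive, 81.3 and 219 CPM in aversive, 16.4 to 35.5 CPM in the neutral group and 32.2 to 53.1 CPM in the mock group. The 4 salient libraries were thus above all others, and the share of all tested genes so arranged was not counted. Against mock cells, Polb did not pass in appetitive cells (2.17 on the log2 scale, edgeR adjusted p = 0.127). Polb shares exonic sequence with Gm26909 on the other strand. Mutyh, a glycosylase that removes adenine mispaired with oxidized guanine, had 0 counts in both appetitive libraries against 9.61 to 27.3 CPM in neutral ones (adjusted p = 0.0336). The median over the 20 genes was -1.07 in aversive against neutral cells. It was -1.74 in appetitive against neutral cells, or -1.50 with genes at 0 counts set to their bound. Of the S phase and division genes, 1 of 20 passed in that comparison, a share near the 6.17% of all genes. It was the helicase subunit Mcm4, which was lower (adjusted p = 0.0355) with 2 and 0 counts in appetitive libraries, 3 and 8 counts in aversive ones and 405 to 4589 counts in neutral ones. The calls of Polb, Mutyh and Mcm4 were lost with the replicate block (adjusted p = 0.114 to 0.128), with only the 2 groups compared (0.110 to 0.135) and without any one mock or neutral library (0.0535 to 0.124). That of Mutyh was also lost without appetitive replicate 1 (0.0531), and that of Polb with library size alone (0.0956) and with at least 10 counts in every library (0.0552). Of the MutS homologues that act in meiosis, Msh4 did not pass the filter on low counts. Msh5 had 0 counts in all 4 salient libraries, 14 to 54 counts in mock and 520, 2 and 6 counts in neutral libraries, and did not pass the test in any comparison.

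**Figure D4:**
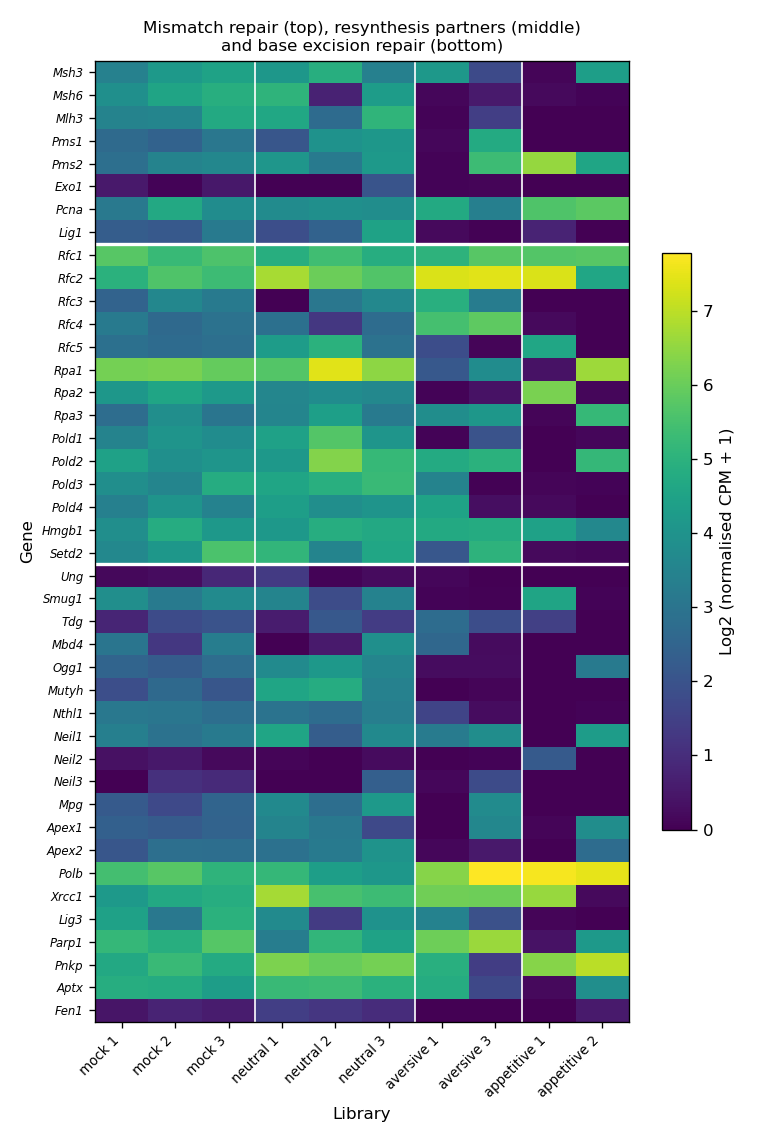
Log2 (normalised CPM + 1) of the 8 mismatch repair genes, 14 partners (titled resynthesis partners, with Hmgb1 and Setd2 among them) and 20 base excision repair genes (rows, from top to bottom) in the 10 libraries (columns). Dark cells mark genes near 0, which are most frequent in the 2 appetitive libraries, while Polb is bright in the 4 aversive and appetitive libraries.

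Across the 10 libraries, which share groups, kit and depth, the members did not vary as one set. On the log2 CPM scale Pearson's r was 0.922 between Msh6 and Mlh3, 0.874 between Mlh3 and Pms1 and 0.810 between Msh6 and Lig1, and it was -0.882 between Pms1 and Pcna. Msh3 and Pms2 had an r of -0.503. Pcna varied less than most genes, with an SD of 0.970 over the libraries, lower than all but 10.0% of tested genes, and Mlh3 varied more than 95.3% of them, with an SD of 3.88. The protein-coding genes with the pattern most like each member were Lmf1 for Msh3 (r = 0.984), Top3a for Msh6 (r = 0.992), Trmt5 for Mlh3 (r = 0.993), Zfp422 for Pms1 (r = 0.990), Nme6 for Pms2 (r = 0.980), Mchr1 for Exo1 (r = 0.975), Med21 for Pcna (r = 0.961) and Kdm1b for Lig1 (r = 0.961), each the highest of 15051 genes over 10 libraries. The highest of that many values from 10 libraries is large for any gene, and these are given as descriptions.

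In the annotation of GRCm38 (GENCODE M21), Msh3 (ENSMUSG00000014850) lies at chr13:92211872-92355003 on the minus strand, Msh6 (ENSMUSG00000005370) at chr17:87975062-87990892 on the plus strand, Mlh3 (ENSMUSG00000021245) at chr12:85234520-85270599 on the minus strand and Pms1 (ENSMUSG00000026098) at chr1:53189187-53297018 on the minus strand. Pms2 (ENSMUSG00000079109) lies at chr5:143909964-143933968 on the plus strand, Exo1 (ENSMUSG00000039748) at chr1:175880581-175913489 on the plus strand, Pcna (ENSMUSG00000027342) at chr2:132249162-132253314 on the minus strand and Lig1 (ENSMUSG00000056394) at chr7:13277283-13311433 on the plus strand. Counts cover the exons of each gene.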

How the data were processed

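The authors aligned reads, cut to their first 40 bp, to mm10 by STAR (Ensembl GRCm38.91), counted reads per gene with featureCounts of Subread without regard to strand, and deposited raw counts for 53379 Ensembl genes in each of 10 libraries. Each library was grouped and numbered by its label. Total counts ran from 16968588 to 67650693. The members and gene lists were chosen with earlier results of these data known.

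All members, the genes of the other lists past an adjusted p of 0.05 (otherwise at most the smallest p in each direction), and the gene most like each member were named. Genes were filtered with filterByExpr, scaled by TMM (factors 0.480 to 1.453) and tested in edgeR 4.0.16 (R 4.3.3) with 1 quasi-likelihood model of 4 groups. P-values are two-sided, adjusted by the Benjamini-Hochberg method over 19754 genes, and called under 0.05. Standard errors came from the F statistics. A group at 0 counts was set to its highest level of 3 counts for a bound. Counting intervals for pooled levels were exact at 95% and cover counting error only. Log2 CPM used a prior count of 2. GENCODE M21 matched 53274 of the 53379 identifiers. Promoters came from RefSeq (GRCm38.p6). Python 3.11.15 with pandas 2.3.3 and numpy 2.4.6 was used for tables.

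Alternatives were DESeq2 1.42.0, edgeR with the size factors of DESeq2 or scaled by library size alone, keeping all genes, requiring 10 counts per library, fitting only the 2 groups compared, the replicate block and leaving out each library. A fit of the 7 libraries of the shared kit was chosen after seeing the data. An item that bears on the counts of Msh3 is not reported here.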

Additional observations from a re-analysis of the deposited data

How the results depend on the processing

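The call on Mlh3 in appetitive against neutral cells was the only one for a member, and it was lost with the replicate block (adjusted p = 0.109), with only the 2 groups compared (0.110) and without any one of 8 libraries. The number of members called there was 2 with no filter, 0 with at least 10 counts in every library (only Pcna was then tested), 0 with the replicate block, 0 with the 2 groups alone, 5 by DESeq2 (30.3% of all tested genes) and 0 to 3 when a library was left out. DESeq2 called 3 members in aversive against neutral (15.5% of all tested genes), 2 in appetitive against aversive (20.4%), 2 in aversive against mock (7.41%) and 4 in appetitive against mock (24.7%). Pcna was called higher in appetitive cells, against neutral and against mock, and the other DESeq2 calls of members were lower. No filter gave 1 member in appetitive against aversive and 1 in appetitive against mock, and the 2 groups alone gave 3 in the latter. Leaving out a library gave 0 to 1 in appetitive against aversive and 0 to 3 in appetitive against mock. The causes were not tested.

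Of 797 alternative values for single members, 716 kept direction and side of the threshold, 10 lost a call, 35 gained one and 36 changed direction, none of the last past the threshold. With the replicate block, log2 fold changes turned to -0.86 for Pms1 and -0.74 for Pms2 (aversive against neutral), -1.85 for Msh3 (appetitive against aversive), -0.44 for Pms1 and -0.21 for Pms2 (aversive against mock), and -0.13 for Msh3 and -1.25 for Exo1 (neutral against mock). Whether the replicate numbers pair the libraries could not be decided. Same-numbered libraries correlated between -0.0371 and 0.164 in their deviations from group means, and differently numbered ones between -0.164 and 0.116. Between mock and neutral, same-numbered pairs lay between 0.055 and 0.135 and the others between -0.104 and -0.00126. In groups of 2 libraries the deviations mirror each other, so these values cannot exclude a shared batch. Scaling by library size alone turned Pcna to -0.041 (aversive against neutral) and -0.085 (aversive against mock), and no filter (-0.0065) and the 7 libraries of the shared kit (-0.025) turned Msh3 in appetitive against aversive. That scaling moved the median of all genes in appetitive against neutral from -0.91 to -1.45, and DESeq2's size factors to -0.63.

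When 1 library was left out, the aversive against neutral range was -6.79 to 1.29 for Pms1, -8.03 to 1.61 for Pms2, -4.47 to 4.51 for Exo1 and -0.41 to 0.96 for Pcna. Aversive against mock ranged from -2.81 to 0.068 for Msh3, -5.81 to 2.16 for Pms1, -7.43 to 2.08 for Pms2 and -0.75 to 0.76 for Pcna. Appetitive against neutral and against mock ranged for Msh3 from -7.84 to 0.066 and from -7.80 to 0.11. Appetitive against aversive ranged from -7.05 to 1.93 for Msh3, -2.60 to 0.011 for Msh6 and -5.24 to 2.88 for Lig1. Neutral against mock ranged from -0.32 to 0.48 for Msh3, -1.14 to 0.26 for Msh6, -0.062 to 1.00 for Mlh3, -6.66 to 2.32 for Exo1, -0.64 to 0.23 for Pcna and -0.56 to 1.37 for Lig1.

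The genes called among all tested ranged over the alternatives from 0 to 3053 (aversive against neutral), 0 to 5989 (appetitive against neutral), 0 to 4037 (appetitive against aversive), 0 to 1463 (aversive against mock), 0 to 4880 (appetitive against mock) and 0 to 1467 (neutral against mock), highest with DESeq2 in each. Groups of 2 libraries and a coefficient of variation of 122% over all genes limit what these counts can show, and levels under 3 counts cannot be ordered.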
